A study of Mus musculus with 14 samples.

Results

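Bone marrow macrophages of wild-type (WT) mice were compared after 3.5 h with the supernatant of mast cell intracellular traps (3 libraries) and without treatment (6 libraries), and the genes described are those that the untreated macrophages themselves expressed. A gene was taken as a member when its mean over the untreated libraries was at least 1 CPM (counts per 1e6 counts of a library) and when it was not on a list of mast cell genes, which left out 6 genes at that level: Gata2, Slc45a3, Hdc, Tal1, Cd200r3 and Il3ra. This left 11877 members of the 47937 genes in the table, and all of them were among the 13061 genes tested. Just outside the limit lay Pdlim1 at 0.998 CPM, and just inside it Zfp541. The series also holds 5 libraries of the same kind of macrophage given the supernatant of mast cells for 3.5 h. All libraries carry the genotype WT and are of poly(A) RNA, and each is labelled as 1 of 3 batches: every batch holds 2 untreated libraries and 1 trap library. The labels name neither the sex nor the age of the mice, and they do not say how the supernatants were prepared or whether libraries came from separate animals or cultures, so p-values measure only the spread between these libraries, which may be technical.

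Macrophages are phagocytes that read their surroundings through receptors for cytokines, chemokines, complement, hormones and microbial products, and that change adhesion and gene expression within hours of a signal. Mast cells are granule-rich tissue cells that release histamine, proteases and cytokines, and the title of the series links them to the trapping of neutrophils. A supernatant can carry soluble mediators, and it can also carry cell material whose RNA is then sequenced along with that of the macrophages, which is why transcripts of mast cells were set apart here.

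The untreated libraries held 13455686 to 22720419 counts and the trap libraries 12414738 to 16491536. The cells carried the macrophage programme: 21 of 22 identity genes were at or above 1 CPM in untreated libraries, with a median of 467 CPM. Transcripts of 32 mast cell genes that untreated macrophages hold below 1 CPM summed to 2.53 to 4.36 CPM in untreated libraries and to 80.4, 886 and 2224 CPM in the trap libraries of batches 1, 2 and 3. Of these 32 genes, 13 had 0 counts over all untreated libraries and 3 over all trap libraries. Neutrophil markers (23 genes, Mpo and S100a8 among them) summed to 160 to 488 CPM in untreated libraries and to 226, 135 and 419 CPM in trap libraries, and 18 of the 23 were detected in all 3 trap libraries. The first principal component of the members held 41.8% of the variance, of which batch accounted for 99.4%, and the third held 8.38%, of which treatment accounted for 86.9%. In bulk RNA, fewer cells of a kind and less RNA per cell cannot be told apart.

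Trap supernatant moved a small set of macrophage genes, mostly by less than 2-fold, and in the main fit falls outnumbered rises. That excess was not stable: without batch 3 there were 112 rises and 103 falls, without untreated replicate 3 there were 119 and 117, and DESeq2 called 167 and 169. Of the 11877 members, 71 rose (0.598%) and 103 fell (0.867%) at a false discovery rate of 0.05 in edgeR's quasi-likelihood test with Benjamini-Hochberg adjustment, batch being a term of the model. All adjusted p-values below are from this test, and differences are log2 values of trap minus untreated with their standard error (SE). Over all 13061 tested genes, 120 were higher (0.919%) and 104 lower (0.796%). These include mast cell transcripts and genes under 1 CPM in untreated libraries, which the member rule leaves out. The rises had a median of 0.42 and a range of 0.19 to 2.41, with 2 genes at 2-fold or more. The falls had a median of -0.55 and a range of -2.75 to -0.21, with 18 genes at 2-fold or more. The median over all members was -0.01.

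All 71 rises lay above both untreated libraries of their own batch in every batch, and 102 of the 103 falls lay below both. Of all members, 7.67% lay above both in every batch, and the share below both was not counted. The calls were made from these same libraries, so the positions follow largely from the calling and are no separate evidence. Counted without regard to batch, all 3 trap libraries exceeded all 6 untreated ones for 133 members (1.12%), among them 18 of the 71 rises, and lay below them for 208 members (1.75%), among them 49 of the 103 falls. The median rise was 0.40, 0.35 and 0.45 in batches 1, 2 and 3, where mast cell transcripts summed to 80.4, 886 and 2224 CPM. Their order followed that of the mast cell transcripts (batch 1 lowest, batch 3 highest) in 16 of 71 genes (22.5%), beside 22.2% of all members. In batch 1 the mast cell sum was 80.4 CPM, and 13 of the 71 genes each gained more than that on their own. That sum covers 32 marker genes only and is scaled differently from the gains, so it does not bound the mast cell RNA of other genes. The part of such RNA in the rises was not tested.

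**Figure D1:**
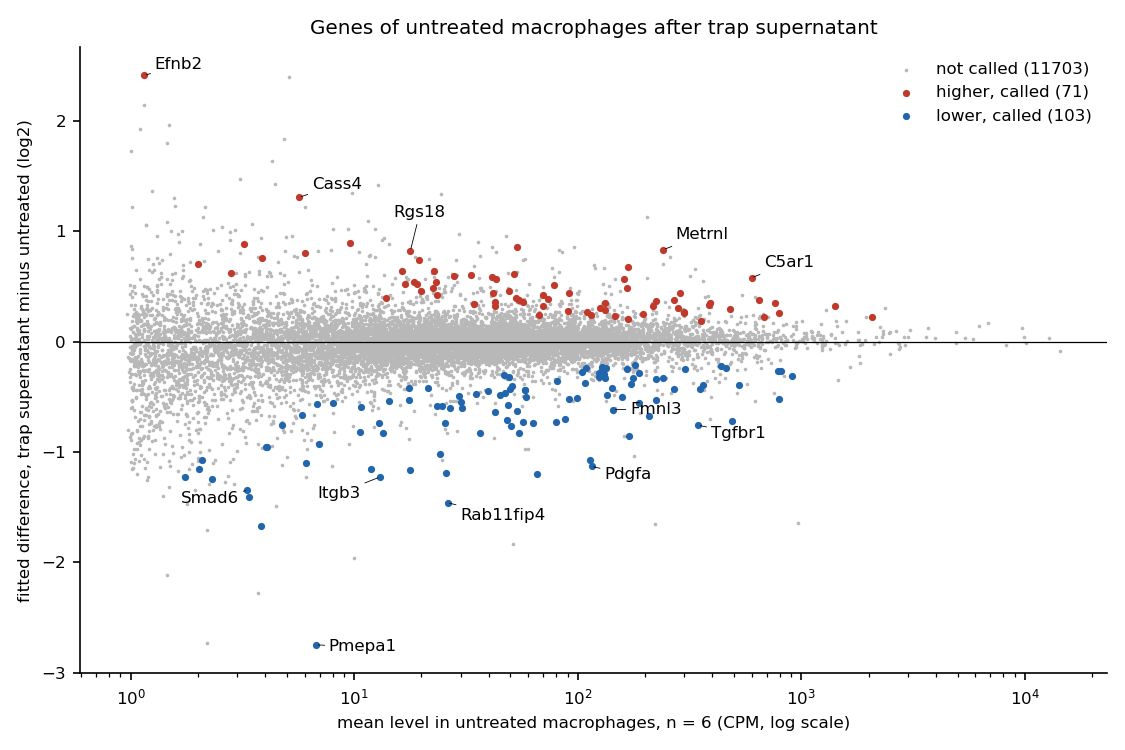
Each point is 1 of the 11877 member genes, placed by its mean level in the 6 untreated libraries (x axis, CPM, log scale) and by the fitted log2 difference between trap supernatant and untreated (y axis). The 71 red points rose and the 103 blue points fell at an adjusted p below 0.05; most lie within 1 log2 unit of 0, Efnb2 is the highest of the red points and Pmepa1 the lowest of the blue ones.

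Among secreted factors and surface receptors, Metrnl, Ccl6, C5ar1, Tlr4, Tnfrsf1a and Cd36 rose. Metrnl encodes meteorin-like, a secreted protein made by macrophages and other cells. Its level was 182 to 291 CPM (median 253) in untreated libraries and 489.7, 347 and 446 CPM with trap supernatant. Every trap value lay above every untreated one, and the difference was 0.83 ± 0.07 with an adjusted p of 1.64e-05, the smallest of all members. Of 25 cytokine and growth factor genes on the list used, Metrnl was the only one that rose and Pdgfa the only one that fell.

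Ccl6, a chemokine that macrophages make without stimulation, differed more between batches than with treatment: it ranged from 136 to 453 CPM (median 272) untreated and stood at 562, 200.1 and 372 CPM with trap supernatant. The groups overlapped, yet in each batch the trap library was the highest, and the fitted rise was 0.44 ± 0.05 (adjusted p 0.000339). Ccl6 was the only one of 15 chemokine genes called, while 13 of the 15 had a positive fitted difference. Within batches 1, 2 and 3, 13, 13 and 6 of them were positive, with medians of 1.98, 0.41 and -0.19.

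C5ar1, the receptor of the complement fragment C5a, stood at 472 to 727 CPM (median 603) untreated and at 847, 868 and 979 CPM in trap libraries. All 3 of these lay above all 6 untreated values, by 0.58 ± 0.10 (adjusted p 0.0126).

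Tlr4, the receptor of bacterial lipopolysaccharide, was the only called gene of 20 toll-like receptor and adaptor genes. It stood at 18.7 to 41.4 CPM (median 37.9) untreated and at 55.2, 31.2 and 65.6 CPM with trap supernatant, so the groups overlapped. Within batches the differences were 0.45, 0.61 and 0.77, and the fitted one was 0.60 ± 0.10 (adjusted p 0.00489). Tnfrsf1a, the main receptor of TNF, rose by less, 0.21 ± 0.05 (adjusted p 0.0293), from a median of 171 CPM (150.2 to 178) to 198, 186 and 195 CPM, without overlap. Cd36, a scavenger receptor for oxidised lipids, measured 1469.6 to 2606 CPM (median 2095) and 2922, 1877 and 2492 CPM, and differed by 0.23 ± 0.05 (adjusted p 0.0423). Its groups overlapped, and the untreated batches differed by more than that.

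Genes that regulate receptor signalling were also among the rises. Rgs18, which speeds the shut-off of G proteins, went from a median of 18.3 CPM (13.3 to 21.9) to 32.2, 25.1 and 37.6 CPM. No value overlapped, and the difference was 0.82 ± 0.10 (adjusted p 0.000489). Pla2g4a, the cytosolic phospholipase that frees arachidonic acid for prostaglandin and leukotriene synthesis, rose by 0.54 ± 0.12 (adjusted p 0.0328) and was the only call among 17 lipid mediator genes. Its batch 2 libraries stood apart in both groups, at 42.8 and 41.4 untreated and 53.8 CPM with trap supernatant, against 9.28 to 23.8 CPM in the other batches. Cblb, a ubiquitin ligase that dampens signalling of activated receptors, rose by 0.39 ± 0.08 (adjusted p 0.0232), with 0.68, 0.16 and 0.29 in the 3 batches.

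Genes of adhesion and the cytoskeleton moved in both directions: of 41 such members 3 rose and 3 fell, and the median over the list was 0.07. Cass4, an adaptor of the Cas family found at focal adhesions, showed the largest rise among genes at 5 CPM or more. It lay at 2.93 to 8.33 CPM (median 5.35) untreated and at 16.1, 12.9 and 12.01 CPM with trap supernatant. The groups were separate, and the difference of 1.31 ± 0.14 (adjusted p 0.000104) corresponds to 2.48-fold. Cdc42ep3, an effector of the small GTPase Cdc42, rose from a median of 18.8 CPM (16.8 to 22.9) to 36.4, 27.5 and 33.05 CPM, again without overlap, by 0.74 ± 0.12 (adjusted p 0.0052). Fgd4, an exchange factor that activates Cdc42, is not on the list and rose by 0.59 ± 0.09 (adjusted p 0.00386), with 0.74, 0.46 and 0.53 in the batches.

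Diaph1, a formin that extends actin filaments, rose by 0.19 ± 0.04 (adjusted p 0.0452), the smallest of the 71 rises. Cytip, which binds cytohesins and limits integrin-based adhesion, rose by 0.64 ± 0.09 (adjusted p 0.00122). The beta-tubulin gene Tubb2b rose by 0.80 ± 0.17 (adjusted p 0.0202), but its untreated level ran from 1.62 to 12.3 CPM across batches and its differences were 0.25, 1.18 and 1.20. Efnb2, which encodes the membrane ligand ephrin-B2 and was chosen after its values were seen, had the largest rise of all members, from a median of 1.13 CPM (0.898 to 1.54) to 4.69, 4.47 and 9.35 CPM (2.41 ± 0.43, adjusted p 0.0157). Its groups did not overlap, and its untreated level lies near the limit of 1 CPM for a member.

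Of 33 transcription factors of the macrophage lineage, Klf7 and Maf rose and Cebpa fell. Klf7, a zinc-finger factor, went from a median of 27.3 CPM (25.5 to 34.2) to 45.4, 37.3 and 44.3 CPM, with no overlap and a difference of 0.59 ± 0.10 (adjusted p 0.00548). Maf, which supports the mature macrophage state, had 70.9, 72.6 and 164 CPM in the trap libraries against 36.3 to 80.9 CPM (median 50.5) untreated. The groups overlapped, batch 3 being high in both, and the fitted difference was 0.86 ± 0.18 (adjusted p 0.0478). Hspa5, the main chaperone of the endoplasmic reticulum, was the only one of 25 unfolded-protein genes called, at 0.35 ± 0.08 (adjusted p 0.043), and Mat2a, which makes the methyl donor S-adenosylmethionine, rose by 0.67 ± 0.13 (adjusted p 0.0259). Tmem171 and Fam84b also rose, with differences of 0.64 ± 0.14 and 0.61 ± 0.12 and adjusted p-values of 0.0423 and 0.0188.

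The promoters of 3 genes are shown as clear cases of each direction: Metrnl, with the smallest p of the rises, and Fmnl3, a formin, and Spsb1, an adaptor of a ubiquitin ligase, with the smallest p-values of the falls. The sequences are RefSeq's on GRCm38.p6, 250 bases before to 50 after the annotated start, on the strand of the gene, and capitals mark CAGAC or its complement GTCTG, the SMAD box. The windows are chr11:121702177-121702476 (plus strand) for Metrnl, chr15:99370433-99370732 (minus) for Fmnl3 and chr4:149954957-149955256 (minus) for Spsb1.
Metrnl: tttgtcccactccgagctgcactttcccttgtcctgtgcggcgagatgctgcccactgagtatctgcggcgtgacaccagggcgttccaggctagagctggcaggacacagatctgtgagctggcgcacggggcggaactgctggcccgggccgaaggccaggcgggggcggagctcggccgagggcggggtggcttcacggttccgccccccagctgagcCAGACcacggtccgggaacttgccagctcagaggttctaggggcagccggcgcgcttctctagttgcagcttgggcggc
Fmnl3: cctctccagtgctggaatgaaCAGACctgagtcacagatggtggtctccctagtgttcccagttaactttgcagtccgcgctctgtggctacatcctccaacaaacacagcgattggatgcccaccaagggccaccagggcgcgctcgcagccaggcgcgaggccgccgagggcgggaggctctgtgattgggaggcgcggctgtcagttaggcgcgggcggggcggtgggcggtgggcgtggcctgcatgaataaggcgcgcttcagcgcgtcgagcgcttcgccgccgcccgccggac
Spsb1: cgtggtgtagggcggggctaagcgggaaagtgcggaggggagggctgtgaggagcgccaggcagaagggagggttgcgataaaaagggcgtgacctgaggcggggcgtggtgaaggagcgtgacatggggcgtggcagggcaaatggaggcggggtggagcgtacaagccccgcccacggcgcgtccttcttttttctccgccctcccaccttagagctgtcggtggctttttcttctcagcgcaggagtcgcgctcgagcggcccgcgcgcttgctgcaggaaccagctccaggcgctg

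Metrnl held 1 SMAD box, 29 bases before the start, Fmnl3 held 1, 229 bases before it, and Spsb1 held none. Of the 11877 members, 9083 had a promoter window, 54 of the 71 rises and 80 of the 103 falls among them. Either strand of CAGAC occurred in 46.3% of the risen, 42.5% of the fallen and 47.3% of all windows, close to one another. Either strand of TGACG, the core of the cyclic AMP response element, occurred in 16.7%, 28.8% and 33.1%. The E-box CACGTG occurred in 1.85%, 7.5% and 10.5%, and the AP-1 site TGANTCA in 9.26%, 7.5% and 4.78%. None of the 4 motifs contains another, and both strands were searched for each. The median GC content of the windows was 59.7%, 65.5% and 61.0%. A match describes the letters only.

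Genes of TGF-beta signalling were among the falls. TGF-beta binds a receptor pair that phosphorylates SMAD proteins, and inhibitory SMADs and membrane adaptors feed back on it. Of 25 members on the TGF-beta and SMAD list, Tgfbr1, Tgfbi and Smad6 fell and none rose, while the list's median was -0.02, beside -0.01 over all members. Falls were 0.867% of all members, but the lists were chosen with earlier results known, so nothing is read from this count. Tgfbr1, the type I receptor, stood at 267 to 406 CPM (median 350.1) untreated and at 239, 163 and 215 CPM with trap supernatant. The groups did not overlap, and the difference of -0.76 ± 0.10 (adjusted p 0.000976) was seen at -0.66, -0.82 and -0.79 in the batches.

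Smad6, an inhibitory SMAD, is expressed at a low level, 1.31 to 5.70 CPM (median 3.28) untreated and 0.378, 2.63 and 1.13 CPM with trap supernatant, and was lower in each batch (-1.35 ± 0.28, adjusted p 0.0202). Its call was lost in 4 of the 9 fits that left out 1 library. Tgfbi, an extracellular matrix protein induced by TGF-beta, stood higher in batch 2 than in the others in both groups: 569 and 581 CPM untreated and 399 CPM with trap supernatant. The other untreated libraries lay between 219 and 275 CPM and the other trap libraries at 170.1 and 205 CPM. The fitted difference was -0.43 ± 0.07 (adjusted p 0.00606). Stroma markers moved with this batch. Their sum was 233 to 240 CPM in the untreated libraries and 235 CPM in the trap library of batch 2. It was 15.5 to 31.3 CPM in the other untreated and trap libraries. Other falls, Cspg4, Pmepa1 and Itga5 among them, also had their highest untreated levels in batch 2. The part of stroma in the levels of Tgfbi and these genes was not tested.

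Pmepa1, a membrane protein that is induced by TGF-beta and binds SMADs, is not on the list and had the largest fall of all members. Its level was 1.95 to 14.9 CPM (median 3.99) untreated and 0.757, 1.01 and 0.967 CPM with trap supernatant. The trap values lay within 0.757 to 1.01 CPM whatever the untreated level of the batch, and the difference was -2.75 ± 0.34 (adjusted p 0.000418), a level of 0.149 times the untreated one.

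Of 14 integrin subunits, 3 fell and none rose. Itgb3, which pairs with the alpha-v chain in a receptor for vitronectin, fell from a median of 14.9 CPM (8.24 to 15.8) to 7.19, 3.64 and 5.88 CPM, with no overlap. Its difference was -1.23 ± 0.12 (adjusted p 7.71e-05), with -1.08, -1.21 and -1.37 in the batches. Itga5, the alpha chain of the main fibronectin receptor, was at 600.0 to 1139 CPM (median 663) and then at 444, 731 and 469 CPM, and had a smaller difference (-0.52 ± 0.10, adjusted p 0.0165). Itgb5, another partner of alpha-v, differed by -0.25 ± 0.05 (adjusted p 0.0176). The median over the 14 subunits was -0.04.

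Fmnl3 and Fhod1, formins that bundle and extend actin filaments, both fell without overlap. Fmnl3 was at 134 to 159.7 CPM (median 143) untreated and at 86.96, 101 and 93.7 CPM with trap supernatant. The batches gave -0.63, -0.62 and -0.60, and the fitted value was -0.62 ± 0.05 (adjusted p 4.39e-05). Fhod1 was at 84.9 to 118 CPM (median 95.4) and at 62.1, 75.00 and 70.5 CPM, a difference of -0.51 ± 0.06 (adjusted p 0.000145). Myo1e, a class I myosin of the cell cortex, fell by 0.26 ± 0.06 (adjusted p 0.043); its untreated values spanned only 789.6 to 821 CPM and its trap values were 694, 662 and 662 CPM. Pdlim7, an adaptor on actin bundles, fell by 0.83 ± 0.10 (adjusted p 0.000364), and Arhgef40, a guanine nucleotide exchange factor, fell by 0.93 ± 0.20 (adjusted p 0.0222).

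A growth factor, a proteoglycan and a collagen were also among the falls. Pdgfa, the A chain of platelet-derived growth factor, a signal to fibroblasts, ranged from 95.4 to 140.0 CPM (median 111) untreated and was 50.6, 54.1 and 52.1 CPM with trap supernatant. The trap libraries of all batches thus lay within a few CPM of each other, below every untreated library, at -1.13 ± 0.11 (adjusted p 9.91e-05). Cspg4, the chondroitin sulfate proteoglycan NG2, was at 10.9 to 44.2 CPM (median 22.4) and at 4.54, 19.9 and 9.995 CPM, which overlap, batch 2 being high in both groups. The fitted difference was -1.19 ± 0.14 (adjusted p 0.000364). Col15a1, a basement membrane collagen, fell from a median of 5.89 CPM (4.86 to 7.18) to 3.48, 2.18 and 2.90 CPM (-1.10 ± 0.15, adjusted p 0.00144).

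Of 21 macrophage identity genes tested, Mertk and Cx3cr1 fell while Tlr4 and Maf rose, and the list's median was 0.02. Cx3cr1, the fractalkine receptor, was at 85.9 to 139.9 CPM (median 109.8) untreated and at 37.8, 96.6 and 37.9 CPM with trap supernatant. Its difference of -1.07 ± 0.14 (adjusted p 0.00253) differed between batches, at -1.54, -0.53 and -1.24 (adjusted p of the difference 0.00197). Mertk, a receptor through which macrophages take up apoptotic cells, fell by 0.83 ± 0.17 (adjusted p 0.0328), also unevenly, at -0.33, -1.35 and -0.88 (adjusted p of the difference 0.0119). Of 17 members of the apoptotic cell uptake list, Mertk, Itgb3 and Itgb5 fell and Cd36 rose. Il17ra, the receptor chain for interleukin 17, fell from a median of 58.9 CPM (53.2 to 62.5) to 36.8, 44.6 and 42.00 CPM, without overlap (-0.51 ± 0.11, adjusted p 0.0241).

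Cebpa, a transcription factor of myeloid differentiation, stood at 159 to 248 CPM (median 216) untreated and at 125, 110.2 and 151 CPM with trap supernatant. The groups were separate and the difference was -0.68 ± 0.11 (adjusted p 0.00583). AU020206, annotated as a long noncoding RNA, fell from a median of 172 CPM (141 to 186) to 82.7, 98.5 and 99.1 CPM, also without overlap (-0.86 ± 0.09, adjusted p 9.91e-05).

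Regulators of protein turnover, transport and signalling were among the largest falls. Spsb1, an adaptor that directs substrates to a ubiquitin ligase, varied between batches from 6.77 to 31.4 CPM (median 15.5) untreated, and its trap values were 3.33, 14.5 and 5.96 CPM. Within batches the difference was -1.08, -1.06 and -1.37, and the fitted one was -1.17 ± 0.11 (adjusted p 5.72e-05). Usp2, a deubiquitinase under circadian control, fell by 1.15 ± 0.19 (adjusted p 0.00467) and was the only call of 18 clock genes. Rab11fip4, an effector of the recycling GTPase Rab11, fell by 1.46 ± 0.23 (adjusted p 0.00764), with -2.30, -1.21 and -0.91 in the batches.

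Atp2b4, a calcium pump of the plasma membrane, went from a median of 66.2 CPM (50.6 to 81.5) to 24.1, 33.8 and 27.8 CPM, without overlap (-1.20 ± 0.22, adjusted p 0.0222). Of 29 calcium and cyclic nucleotide genes it was the only one called. Arl4c, an ARF family GTPase, was the only call of 16 LXR targets (-0.56 ± 0.09, adjusted p 0.00381). Fkbp5, a co-chaperone of the glucocorticoid receptor, was that of 14 glucocorticoid targets (-0.64 ± 0.12, adjusted p 0.0157). Sbno2, a corepressor induced by interleukin 10, was that of 18 SOCS and STAT3 genes (-0.25 ± 0.05, adjusted p 0.016). Pald1 fell by 1.02 ± 0.19 (adjusted p 0.0161).

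**Figure D2:**
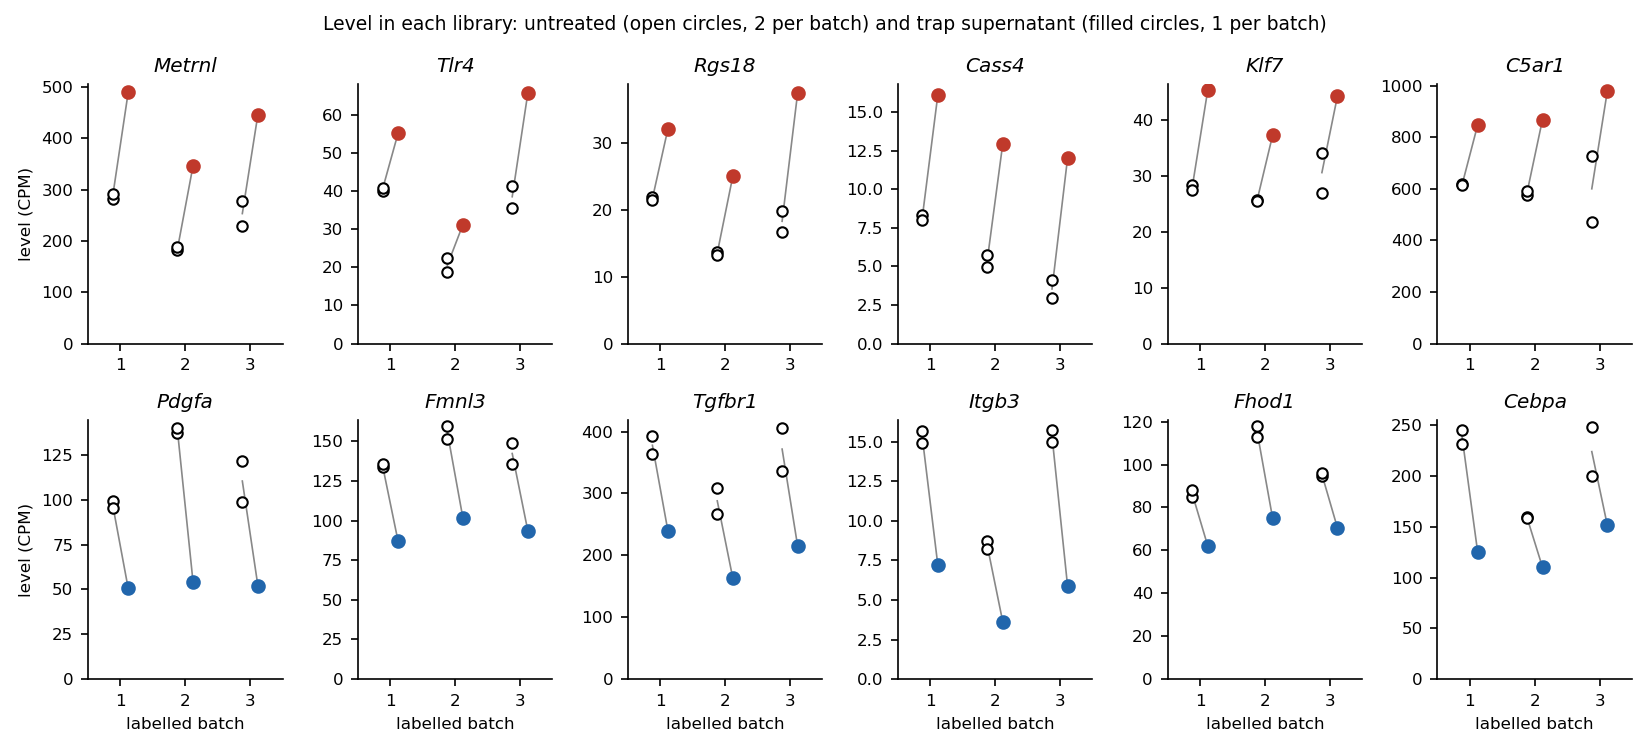
Level (y axis, CPM, from 0) of 12 named genes in each library, by labelled batch (x axis): open circles are the 2 untreated libraries of a batch, the filled circle is its trap library (red for rises, blue for falls), and the line joins the mean of the pair to the trap library. In every panel the trap library lies outside the untreated pair of its batch on the same side in all 3 batches, and for Pdgfa the 3 trap values are 50.6, 54.1 and 52.1 CPM. The genes were picked from the calls, so these positions are no separate evidence.

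**Figure D3:**
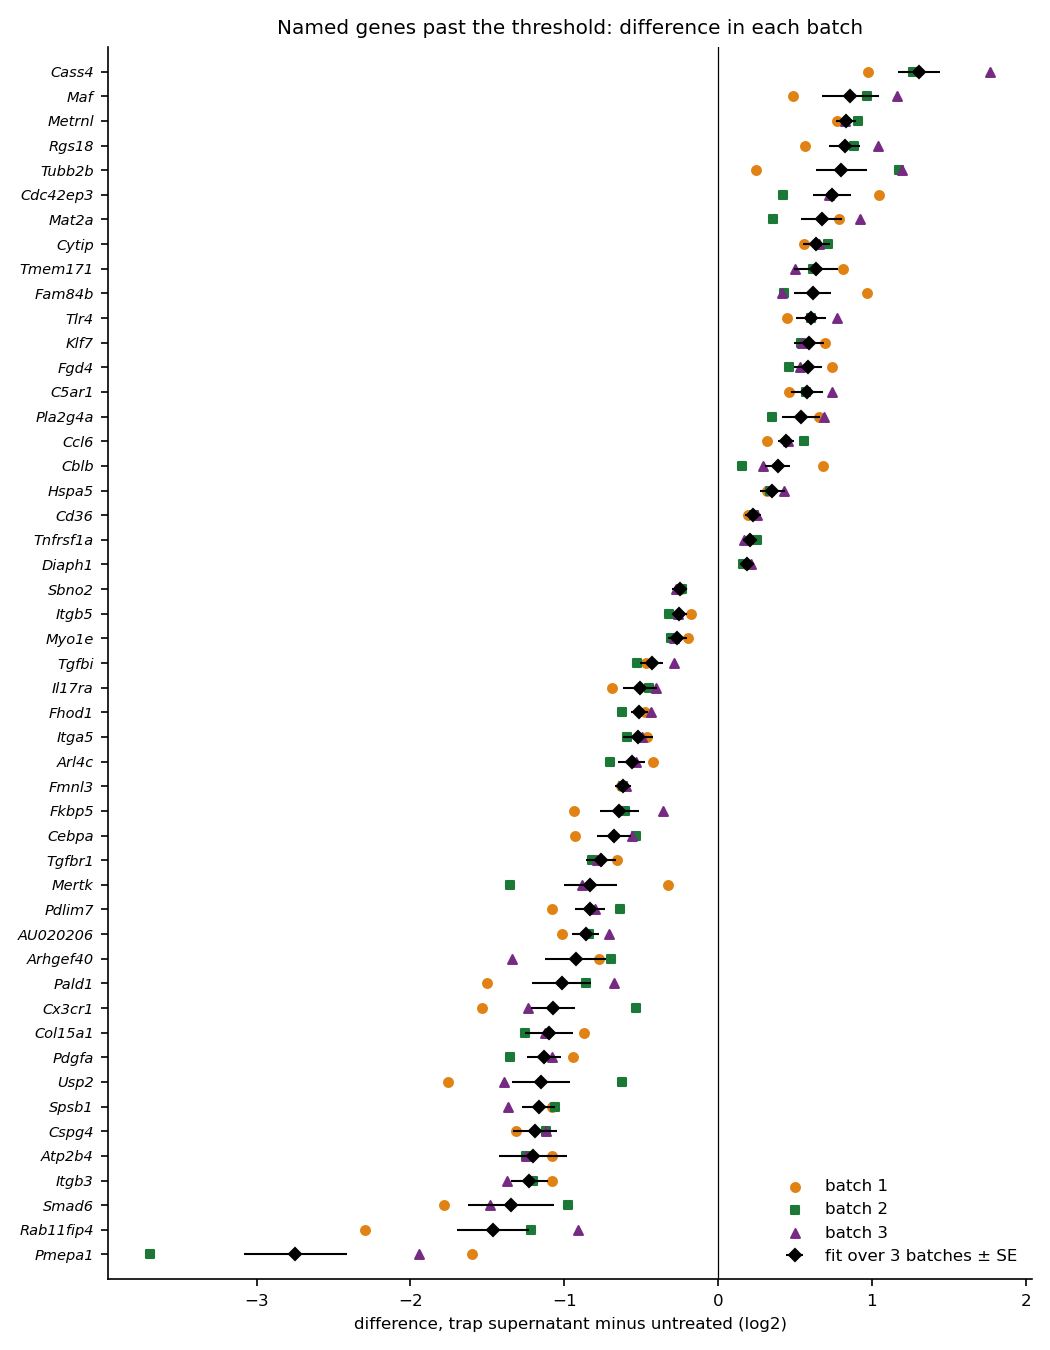
Log2 difference between trap supernatant and untreated (x axis) of named genes past the threshold (rows), in each of the 3 batches (coloured symbols) and in the fit over all batches (black diamonds; bars are ± SE). All symbols of a gene lie on 1 side of 0, as for every called member, and part of the naming rule required it, so this is no separate evidence. The batches lie close together for Fmnl3 and Metrnl and far apart for Pmepa1, Mertk and Cx3cr1.

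Of the 174 calls, 37 were on any of the 43 lists and 137 were on none (55 rises and 82 falls). The lists held 748 members, of which 4.95% were called, beside 1.47% of all members; the lists were chosen with earlier results known, so nothing is read from that share. No member of the NF-kB list (26), the type I interferon list (42), the immediate early list (30), the MHC class I (14) and class II (9) lists, the inflammasome list (16), the lysosome list (31), the cell cycle list (34), the glycolysis and hypoxia list (26), the sterol synthesis list (23) or the NRF2 and iron list (21) passed the threshold. Over all members 1480 had an unadjusted p under 0.05 in the same edgeR test; the lists had 3, 5, 2, 1, 1, 1, 3, 7, 3, 2 and 4 of them in that order. With limma-voom, Klf2 of the immediate early list was the only gene of these lists past the threshold. With DESeq2, which called 167 rises and 169 falls over all members, they were Klf2, Tnip1 and Tnip3 (NF-kB), Ciita (MHC class II), Ccnd2 (cell cycle), and Hk2 and Ankrd37 (glycolysis and hypoxia); these names were chosen after their values were seen.

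Signs were uneven in some lists without calls. All 42 interferon-response members had a positive fitted difference (median 0.37), as did 26 of 30 immediate early genes (median 0.28), 12 of 12 genes of MAP kinase feedback (median 0.27) and 21 of 23 sterol synthesis genes (median 0.13), against 5654 of all 11877 members. Within batches the interferon list had medians of 1.02, 0.48 and -0.45, with 42, 42 and 1 members positive in batches 1, 2 and 3. For the immediate early list the medians were 1.23, -0.03 and -0.18, with 30, 14 and 11 members positive. The sterol list ran the other way, with medians of -0.07, 0.20 and 0.38 and 7, 21 and 20 members positive. For MAP kinase feedback, the phosphatases and Sprouty proteins that curb ERK signalling, the medians were positive throughout, at 0.41, 0.30 and 0.52, and the smallest adjusted p of a member was 0.0538; limma-voom called 1 of the 12 (Spry2) and DESeq2 called 3.

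**Figure D4:**
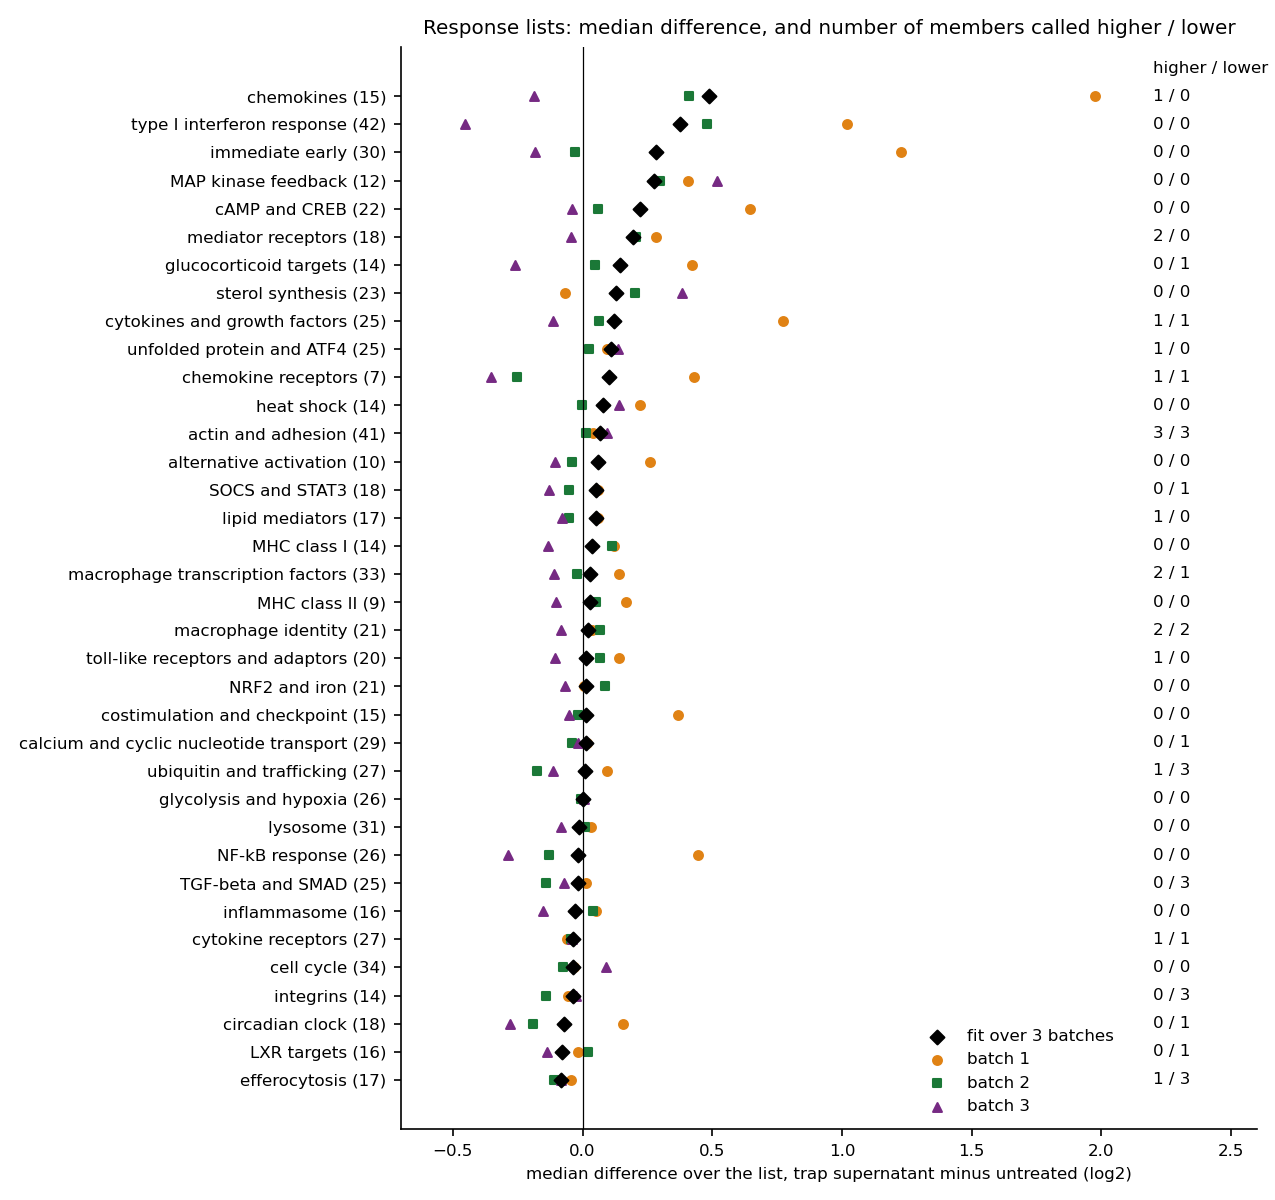
Median log2 difference between trap supernatant and untreated (x axis) over the members of each of 36 lists (rows, number of members in brackets), in the fit over all batches (black diamonds) and within each batch (coloured symbols); the column at the right gives how many members rose / fell past the threshold. Most lists sit near 0 with few calls; chemokines, interferon-response, immediate early and NF-kB genes lie highest in batch 1 and lowest in batch 3.

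A test of whether the trap response differs between the 3 batches (group by batch terms in edgeR's quasi-likelihood model) called 466 members (3.92%), and 1561 had an unadjusted p under 0.05. Only 5 of the 466 were among the 174 calls of the main comparison: Mertk and Cx3cr1 (above), Fam84b, and Amz1 and 2510009E07Rik, the last pair chosen after their values were seen. Of the 466, the response was largest in size, whatever its sign, in batch 1 for 334, in batch 2 for 28 and in batch 3 for 104. The signed medians were 0.63, -0.07 and -0.37, and 378, 202 and 97 of the 466 were positive in batches 1, 2 and 3. The 466 included 22 of 30 immediate early genes, 15 of 26 NF-kB genes, 16 of 42 interferon-response genes, 9 of 22 cyclic AMP and CREB targets and 7 of 15 chemokines. The trap library of batch 1 held the fewest mast cell transcripts (80.4 CPM, against 886 and 2224), and the part of that difference in the response was not tested. Each batch has a single trap library, so the spread in this test comes only from untreated and mast cell libraries of the same batch. That spread may be technical, and the p-values do not measure variation between trap libraries of a batch. Without the trap library of batch 1 the count was 3. Without untreated replicates 1, 3, 4 and 6 in turn it was 283, 1311, 292 and 840.

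The inflammatory genes of the named panel were highest in the trap library of batch 1. Cxcl1, a chemokine that attracts neutrophils, was at 206 CPM in the trap library of batch 1 against 10.3 and 12.2 CPM in the untreated pair, while in batch 3 it was at 53.4 CPM against 56.4 and 44.5 CPM. Tnf, the gene of tumour necrosis factor, differed by 2.14, 0.09 and -0.09 in batches 1, 2 and 3, Il1b, of interleukin 1 beta, by 2.85, 0.96 and 0.33, and Ptgs2, the inducible cyclooxygenase, by 3.18, 0.79 and 0.57. None of these was called in the main comparison (adjusted p 0.647, 0.745, 0.4 and 0.482). Cxcl2 differed by 3.31, 0.83 and 0.10 and Ccl2 by 2.90, 0.35 and -0.19. For Cxcl1, Tnf and Il1b the libraries given mast cell supernatant were also highest in batch 1. Cxcl1 was there at 222 and 301 CPM, at 58.8 CPM in batch 2 and at 19.2 and 19.97 CPM in batch 3. Tnf followed the same order, at 841 and 1041, 318, and 130.3 and 119 CPM, as did Il1b, at 38.99 and 45.9, 5.66, and 2.55 and 2.90 CPM. The high batch 1 values of these 3 genes were thus not limited to the 1 trap library. With mast cell supernatant the mast cell transcripts summed to 73.4 and 93.6 CPM in batch 1, 1662 CPM in batch 2, and 315 and 254 CPM in batch 3. There batch 2 held the most, and the part of these transcripts in the response was not tested. Il10, the gene of an anti-inflammatory cytokine, was above all untreated libraries in each trap library, at 15.1, 10.5 and 10.7 CPM against 1.31 to 6.71 CPM (median 4.45), but its difference of 1.64 ± 0.41 had an adjusted p of 0.0949.

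Several feedback and early genes differed in sign between batches. Nr4a3, Rcan1, Socs3 and Sgk1 were named for the small p of this very difference. Nr4a3, an orphan nuclear receptor of the early response, was at 224 CPM with trap supernatant in batch 1 against 33.4 and 30.7 CPM untreated. In batch 2 it stood at 12.5 CPM against 57.4 and 52.02 CPM, and in batch 3 at 19.3 CPM against 85.1 and 77.99 CPM. It was thus above the untreated pair in batch 1 and below it in the other batches, with differences of 2.81, -2.12 and -2.08 (adjusted p of the batch difference 1.15e-08). Rcan1, an inhibitor of calcineurin, differed by 2.03, 0.14 and -1.16, Socs3, a feedback inhibitor of cytokine receptors, by 1.55, -0.61 and -0.89, and Sgk1, a kinase induced by glucocorticoids, by 0.60, -1.26 and -0.96. The interferon-response genes Ifit1, Isg15 and Irf7 were positive in batches 1 and 2 and negative in batch 3, at 2.25, 0.95 and -0.59, 1.70, 0.62 and -0.84 and 1.08, 0.47 and -0.47; their main adjusted p-values were 0.525, 0.722 and 0.725.

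**Figure D5:**
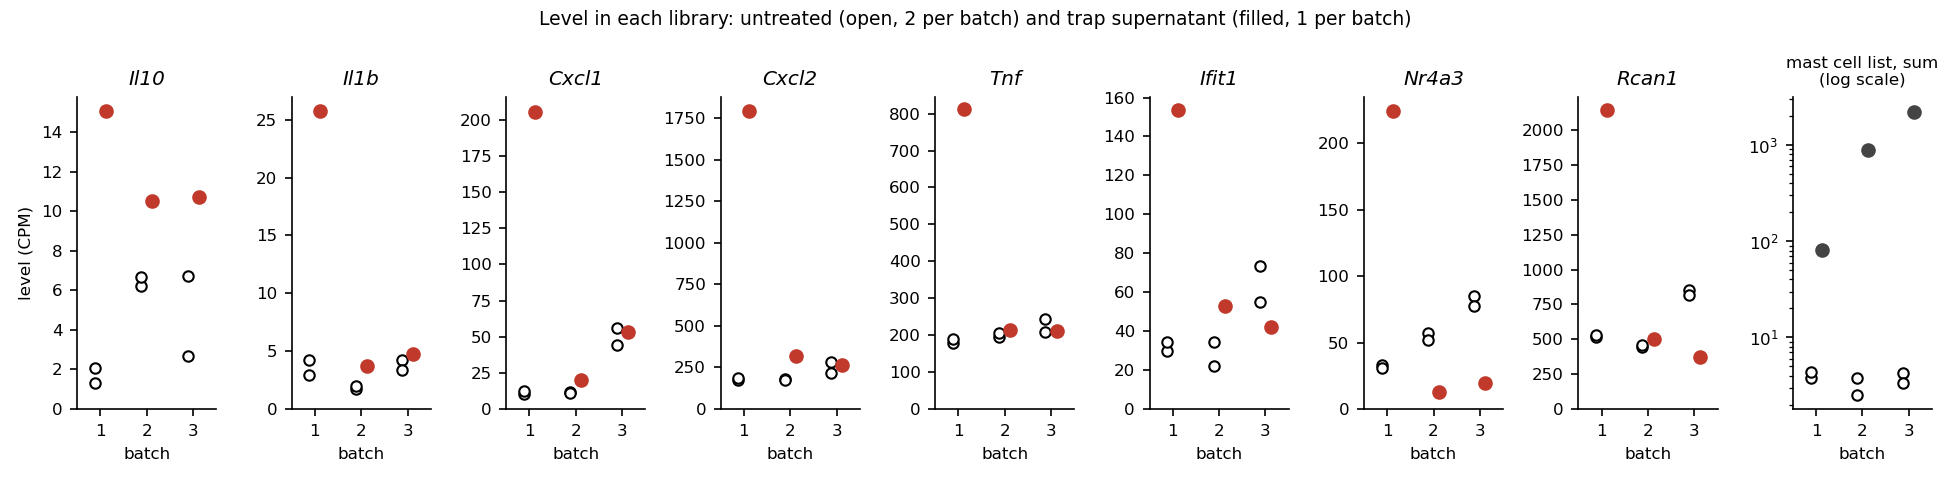
Level (y axis, CPM; a log scale for the last panel) of 8 genes and the sum of 32 mast cell transcripts (last panel) by labelled batch (x axis): open circles are the 2 untreated libraries of a batch and filled circles its trap library. The trap library of batch 1 lies far above its pair for Il1b, Cxcl1, Cxcl2, Tnf, Nr4a3 and Rcan1, by a wider margin than in batches 2 and 3; the batch 2 library also lies above its pair for Il1b, Cxcl1 and Cxcl2, and for Nr4a3 those of batches 2 and 3 lie below theirs. The mast cell sum of the trap libraries runs from 80.4 CPM in batch 1 to 2224 CPM in batch 3.

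Mast cell supernatant served as the other treatment, and its comparison shares the 6 untreated libraries, so only values are set side by side. Metrnl was at 241 ± 49.1 CPM (SD, n = 6) untreated, 428 ± 73.4 (n = 3) with trap supernatant and 483 ± 65.8 (n = 5) with mast cell supernatant. Fmnl3 was at 144 ± 10.8, 94.03 ± 7.25 and 86.96 ± 5.34 CPM in the same order, Pdgfa at 115 ± 20.2, 52.3 ± 1.76 and 45.3 ± 3.72 CPM, and Cass4 at 5.68 ± 2.15, 13.7 ± 2.16 and 16.03 ± 3.73 CPM. Tested directly against each other, trap and mast cell supernatant gave 0 called members (0%) in edgeR's test, with 510 at an unadjusted p under 0.05, 0 in limma-voom and 11 in DESeq2. The 51 named calls had trap minus mast cell differences of -0.50 to 1.02 (median 0.07), and the smallest adjusted p among them was 0.842. That value was shared by Tgfbr1 (0.40 ± 0.10), Spsb1 (0.49 ± 0.12), Usp2 (0.86 ± 0.22) and Rab11fip4 (1.02 ± 0.27), each with a positive difference, and a p above the threshold does not show that the supernatants act alike.

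The set of called genes depended on single libraries. All 174 kept their sign in every alternative fit, but all 71 rises and all 103 falls already had the same sign in each batch. Their kept signs thus follow largely from the calls and are no separate evidence. Of the 51 named calls, 24 passed the threshold in each of the 9 fits that left out 1 library. They include Metrnl, Ccl6, Cass4, Rgs18, Cytip, Fgd4, Pmepa1, Tgfbr1, Tgfbi, Itgb3, Fmnl3, Fhod1, Pdgfa, Cspg4, Col15a1, Cx3cr1, Spsb1, Usp2, Rab11fip4, Arl4c, Pdlim7 and AU020206. Diaph1 and Tmem171 lost their call in 8 of the 9 fits, Maf, Cd36, Hspa5 and Myo1e in 7, and Mertk and Tnfrsf1a in 6. Counts ran lowest without the trap library of batch 3, with 20 rises and 39 falls, and were 32 and 56 without that of batch 1. Without untreated replicates 2 and 5 in turn they were 42 and 62, and 36 and 64; without untreated replicate 3 they were 119 and 117. A fit to replicates 1 to 3 of each group alone, with the replicate number as a block, gave 11 rises and 25 falls, and a fit with no batch term gave 1 and 5.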

How the data were processed

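Poly(A) RNA was sequenced in 14 libraries: 6 untreated, 3 with trap supernatant and 5 with mast cell supernatant. The deposited table gives, per gene and library, the raw count of reads as the authors left it, made with featureCounts 2.0.0 on GRCm38, per the submitters' processing notes; for the aligner, annotation and strand setting, nothing was stated in the labels. Symbols were found for 47224 of 47937 genes by Ensembl identifier, and coordinates are those of the GENCODE annotation of GRCm38.

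Counts were analysed with edgeR 4.0.16 in R 4.3.3: filterByExpr, TMM scaling, and a robust quasi-likelihood fit of group and batch over all 14 libraries, which share 1 estimate of the spread, with Benjamini-Hochberg adjustment over the 13061 genes tested. SEs are those implied by the F statistic. Levels are TMM-scaled CPM, whereas membership used CPM of the total counts. Within a batch, log2 CPM (prior count 1) was averaged per group before subtraction. The 14 libraries held 11729073 to 22720419 counts, which sets the precision of genes near 1 CPM. The fit was tested on simulated counts.

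Replicate numbers 1 to 3 mark the labelled batch. With each group's mean subtracted, same-numbered libraries (9 pairs) had correlations over genes of 0.403 to 0.797, and differently numbered ones of -0.642 to 0.201. No pair of libraries of a group agreed within sampling noise (chi-square per degree of freedom of at least 1.77). Pairs of the same group ran from 1.77 to 14.0 within a batch and started at 29.1 across batches. Libraries of a batch were thus more alike than those of different batches. Whether they are technical replicates cannot be told from these values.

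Named are called members among the 15 largest changes in each direction (untreated mean of at least 5 CPM, same sign in each batch), called members on a list, the 5 smallest p-values per direction, a panel of 10 genes, and the 10 members with the smallest p for a batch difference. A few genes that meet this rule are left unreported. The members, lists and this rule were chosen with earlier results of these data known. Alternatives were DESeq2 1.42.0, limma-voom 3.58.1, RLE scaling, no filter, other member limits, the mast cell list kept, no batch term, a replicate block, trap and untreated libraries alone, and leaving out each library or batch. Gene families in the closing section were grouped by symbol after the calls were seen.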

Additional observations from a re-analysis of the deposited data

Results flagged for a closer look

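In Klf7, which rose, the highest of the 6 untreated libraries (34.2 CPM, replicate 3) stood apart from the other untreated ones, the next being 28.5 CPM; it still lay below all 3 trap libraries. This was the only such value among the untreated groups of 71 named genes, and chance alone flags about 1 in 20 groups.

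The response to trap supernatant differed between the 3 batches, by the test of the difference itself, for 19 of the named genes. All adjusted p-values here come from edgeR's quasi-likelihood test of the group by batch terms, whose spread comes from untreated and mast cell libraries only. Among secreted factors and their enzyme they were 0.000229 for Il1b, 0.000147 for Ptgs2, 3.19e-06 for Cxcl1, 0.000468 for Cxcl2, 0.0478 for Ccl2, 5.93e-07 for Osm and 6.95e-07 for Tnf. Among regulators of transcription and signalling they were 5.15e-07 for Cited2, 4.04e-07 for Nfkbid, 5.97e-07 for Nupr1, 2.8e-10 for Rcan1, 5.93e-07 for Egr2, 6.27e-07 for Gadd45b, 4.04e-07 for Socs3, 5.93e-07 for Sgk1 and 1.15e-08 for Nr4a3.

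In each of these 16 genes the difference was highest in batch 1. Osm, the gene of oncostatin M, differed by 3.21, -0.15 and -0.95 in batches 1, 2 and 3, and Cited2, a transcriptional coregulator, by 1.86, 0.20 and 0.05. Nfkbid, an inhibitor of the NF-kB family, differed by 1.67, 0.19 and -0.26, Nupr1 by 1.86, 0.19 and -0.67, Egr2 by 1.14, 0.20 and -0.68 and Gadd45b by 1.68, -0.46 and -0.69. The other 3 genes had passed the threshold of the main comparison. Fam84b (0.0485) differed by 0.97, 0.43 and 0.41 and was positive throughout. Mertk (0.0119) and Cx3cr1 (0.00197) were negative throughout, with the smallest difference of Mertk in batch 1 and that of Cx3cr1 in batch 2.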

How the results depend on the processing

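The main model gave 71 rises, 103 falls, 466 batch differences and 0 differences from mast cell supernatant. With DESeq2 the rises, falls and differences from mast cell supernatant were 167, 169 and 11. Without a batch term 1 rise and 5 falls remained by count, and with the replicate block, which uses replicates 1 to 3 of each group only, there were 11 and 25. Without batch 1 there were 35 and 62, without batch 2 there were 25 and 42, and without batch 3 there were 112 rises and 1 difference from mast cell supernatant. Batch differences numbered 838 with no filter on low counts. Leaving out 1 library at a time, rises ran from 20 to 119, falls from 39 to 117 and batch differences from 3 to 1311, while differences from mast cell supernatant stayed at 0. Among batch differences the libraries that moved the count by over 1.5 times were trap replicate 1 (3) and untreated replicates 1 (283), 3 (1311), 4 (292) and 6 (840). Fewer libraries enter these fits; beyond that the cause was not tested.

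All 174 called members kept their sign in every alternative, which follows largely from their having the same sign in each batch. Other member limits and keeping the mast cell list reuse the main fit. Of the 51 named calls 24 passed in every fit that left out 1 library and 3 (AU020206, Fmnl3 and Pdgfa) in every alternative run. Il10 passed the threshold with DESeq2 (adjusted p 0.00831), without untreated replicate 3 (0.0267) and without trap replicate 2 (0.046). RLE scaling, limma-voom, other limits for members and keeping mast cell genes left each count within 1.5 times. Every trap value within a batch rests on 1 library, and an SE drawn from 14 libraries does not replace trap replicates within a batch.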

Other observations

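Further families were read from gene symbols after the calls had been seen, so they are descriptions without a test. Of 6 sialyltransferases of the St3gal family, which add sialic acid in alpha-2,3 linkage, St3gal5 and St3gal4 rose, at 0.51 ± 0.10 and 0.42 ± 0.08 (adjusted p 0.0125 and 0.0106). Of 3 members of the St6gal and St6galnac families, St6gal1, which adds it in alpha-2,6 linkage to N-glycans, fell. It was at 42.3 to 53.1 CPM (median 47.6) untreated and at 38.9, 28.1 and 35.95 CPM with trap supernatant, without overlap (-0.47 ± 0.10, adjusted p 0.0222). B4galt1, the galactosyltransferase that builds their acceptor, fell from a median of 212 CPM (196 to 267) to 149, 152 and 162 CPM, also without overlap (-0.53 ± 0.07, adjusted p 0.000748), and was the only call of 6 B4galt members. Of 14 sulfotransferases and heparan sulfate enzymes, Chst3, Extl3 and Hs2st1 fell and none rose, with differences of -0.48 ± 0.10, -0.38 ± 0.06 and -0.30 ± 0.07 (adjusted p 0.0176, 0.00401 and 0.0352).

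Calcrl, the receptor chain for calcitonin gene-related peptide and adrenomedullin, rose by 0.48 ± 0.07 (adjusted p 0.00272), from a median of 150.5 CPM (123 to 233) to 176, 297 and 215 CPM; the groups overlapped, batch 2 being high in both. Ffar4, a receptor of long-chain fatty acids, was low and went from a median of 2.12 CPM (1.69 to 3.23) to 1.44, 0.727 and 0.806 CPM (-1.24 ± 0.30, adjusted p 0.0478). Of 10 RGS members, Rgs14 rose with Rgs18, at 0.46 ± 0.10 (adjusted p 0.0377), and of 12 tubulins Tuba1a rose with Tubb2b, at 0.46 ± 0.09 (adjusted p 0.0125). Of 12 formins Diaph1 rose and Fhod1 and Fmnl3 fell, with a median over the 12 of -0.01. Of 172 solute carriers 5 fell and none rose, with a median of -0.01. Furin, the protease that cleaves the precursors of TGF-beta and of many other secreted proteins, fell from a median of 281 CPM (235 to 298) to 205, 199 and 196 CPM without overlap (-0.43 ± 0.10, adjusted p 0.0463). Nrros, which holds latent TGF-beta on the surface of myeloid cells, rose by 0.37 ± 0.09 (adjusted p 0.0407).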
